A study of Mus musculus with 2 samples.

Results

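The chemokine ligands are a set of 33 genes chosen by symbol from the 27933 symbols of the gene tables. No measured value entered the rule, but earlier results of these data were known when the set was chosen. A row was found for 32 of them, and Cxcl11 was not analysed here. The genes were counted in 2 single-cell RNA sequencing libraries of whole lung from male C57Bl/6J mice aged 3 months, 1 mouse per library. The labels call one library control and the other fibrosis. Mice had received 100 µg of either TiO2 (titanium dioxide, a mineral dust) or crocidolite asbestos (a fibre that scars the lung) into the trachea 14 days earlier. Both particles are named in each label and neither is tied to a mouse, and the names control and fibrosis are used throughout.

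Chemokines are small secreted proteins that guide cells bearing matching G protein-coupled receptors. The CC ligands mainly draw monocytes, dendritic cells, lymphocytes and eosinophils, and the CXC ligands with a Glu-Leu-Arg motif draw neutrophils through Cxcr2. In lung, alveolar type 2 (AT2) cells, macrophages and lymphatic vessels each make characteristic ligands, and monocytes that enter an injured lung can become alveolar macrophages.

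Filters on genes, mitochondrial UMIs and doublets left 7510 cells of the control and 6559 of the fibrosis library, whose median depth was 3681 and 4239 UMIs (unique molecular identifiers, each standing for 1 captured transcript). Cells were sorted into 25 classes by marker genes that include no chemokine or chemokine receptor, and each class is called by the cell type its markers resemble. Levels are given as CPM, the gene's UMIs per 1000000 UMIs of the class. There were no replicates, so no difference has a replicate check, and each 95% interval in brackets covers counting error only. The make-up of the libraries differed: alveolar macrophage-like cells numbered 676 in the control against 981 in the fibrosis library, interstitial macrophage-like cells 150 and 356, migratory dendritic-like cells 8 and 73, classical monocyte-like cells 1640 and 414, and neutrophil-like cells 689 and 78. The libraries shared 89 barcodes, of which 75 were kept in both, and without them all 18 ratios of members past 2-fold stayed past it.

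The source class of a gene was the class with its highest CPM, as a mean of both libraries, among classes of at least 20 cells. Of the 31 members with at least 30 UMIs in classed cells, 13 had 1 class that held at least 50% of their UMIs in each library, against 16.2% of all genes at that depth. These were Ccl6 (alveolar macrophage-like cells), Ccl7, Ccl8, Ccl12, Cxcl13 and Pf4 (interstitial macrophage-like cells), Ccl22 (migratory dendritic-like cells), Ccl11 (fibroblast-like cells), Ccl21a (lymphatic endothelial-like cells), Cxcl12 (endothelial-like cells), Cxcl1 and Cxcl15 (AT2-like cells) and Xcl1 (NK-like cells). The other members were spread over several classes, or their main class changed between the libraries.

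**Figure D1:**
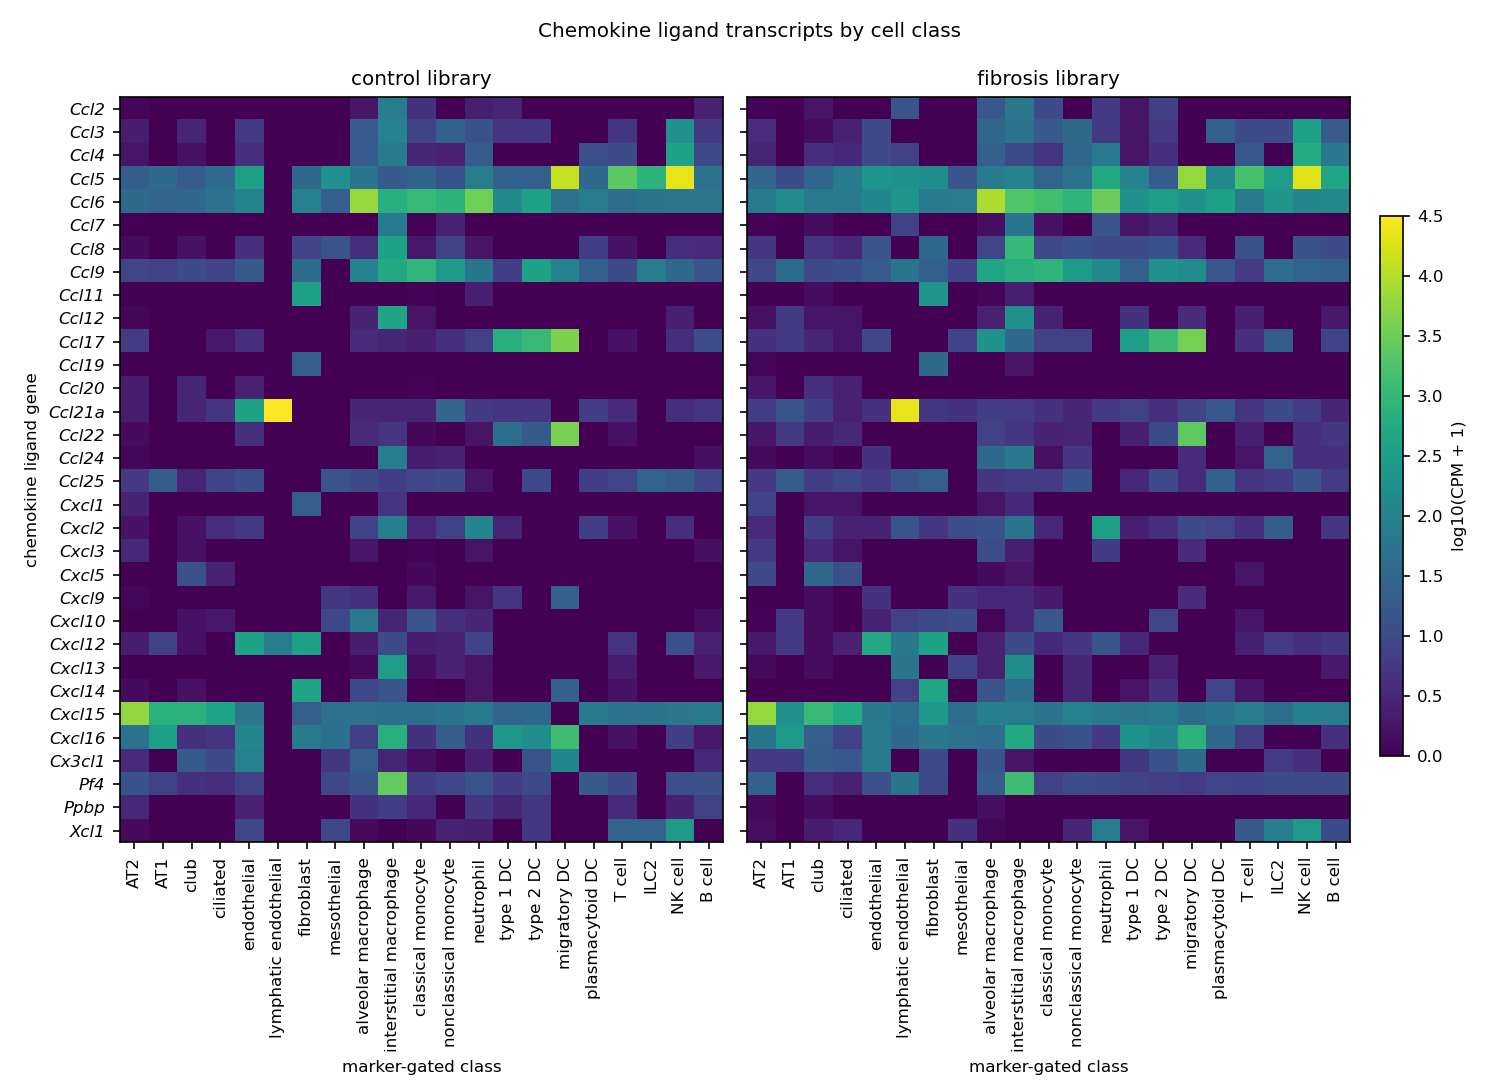
Level of each of the 32 chemokine ligand genes (rows) in each marker-gated class of at least 20 cells (columns), as log10(CPM + 1), in the control (left) and fibrosis (right) library. Ccl21a is brightest in lymphatic endothelial-like cells, Ccl5 in NK-like cells and Cxcl15 in AT2-like cells of both libraries, and Ccl17 and Ccl24 appear in fibrosis alveolar macrophage-like cells.

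The ratio between the libraries inside the source class was read for the 29 members with at least 10 UMIs there. It was at least 2-fold higher in the fibrosis library for 4 members, against 4.86% of all genes, and at least 2-fold lower for 4 members, against 9.24% of all genes. The median log2 ratio (0.5 UMI added to each sum) was -0.16 over the members and -0.14 over the 11496 genes read in the same way. The higher members were Cxcl3, Cxcl2, Ccl8 and Cxcl5, and the lower members were Cxcl10, Ppbp, Ccl12 and Pf4. The remaining 21 lay within 2-fold in the class where they were highest.

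**Figure D2:**
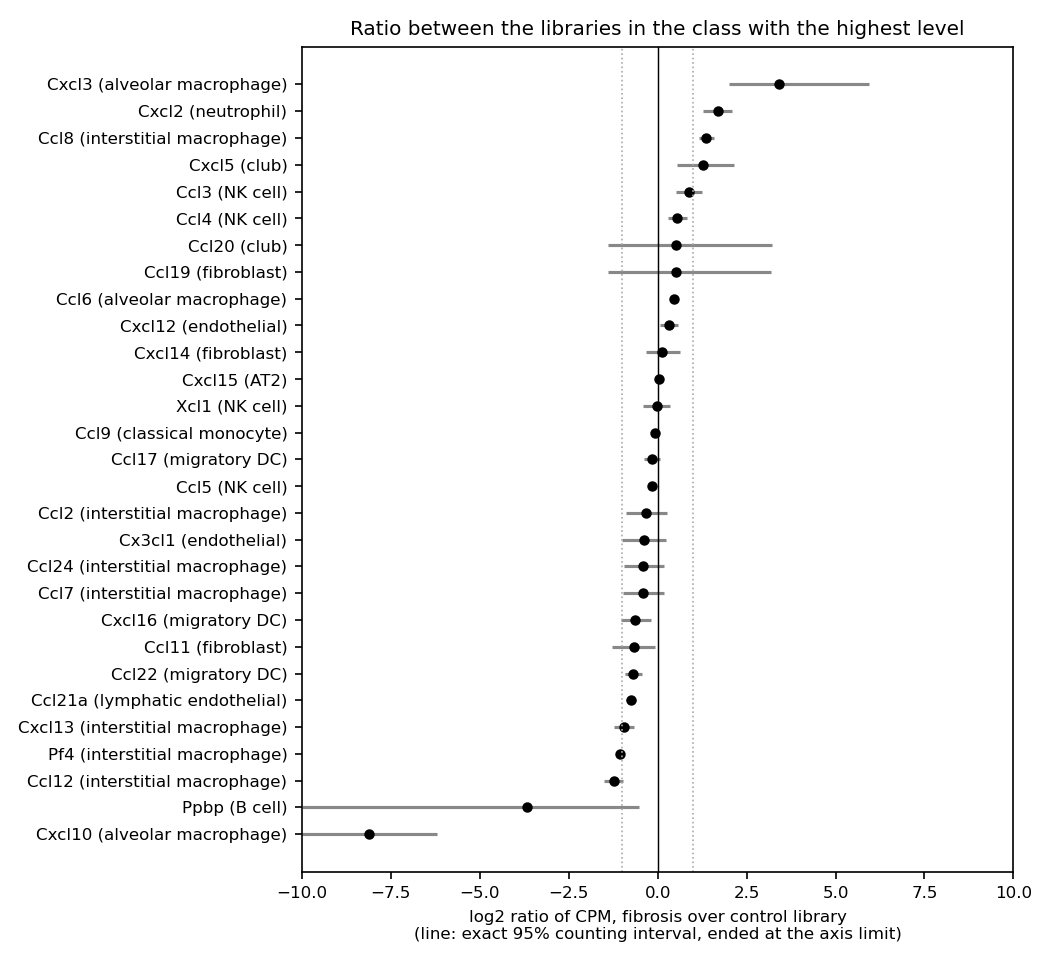
log2 ratio of CPM, fibrosis over control library, of the 29 members in their source class (in brackets beside the name), with exact 95% counting intervals as lines ended at the axis limit; dotted lines mark 2-fold. Most points lie between the dotted lines, and the widest intervals belong to members with few UMIs.

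The mouse monocyte-attracting ligands Ccl6 and Ccl9, which bind Ccr1, were found in several myeloid classes. Ccl6 was found in 99.7% of control and nearly every one of the fibrosis alveolar macrophage-like cells, at 6396 CPM (6312 to 6481) and 8727 CPM (8651 to 8805), a log2 ratio of 0.45. In interstitial macrophage-like cells it stood at 656 CPM (589 to 729) in the control against 1868 CPM (1797 to 1941) in the fibrosis library, a log2 ratio of 1.51. Inside clusters of such cells, made without the chemokines and their receptors, the levels of Ccl6 were closer. They were 1083 and 1231 CPM in the cluster led by C1qb, Ms4a7 and Mgl2, a log2 ratio of 0.18. In the cluster led by Folr2, Cd163 and Stab1 they were 890 and 1089 CPM, a log2 ratio of 0.29. Neutrophil-like cells were also high in both libraries, with 3238 and 2956 CPM. In B-like cells, which are not known to make Ccl6, 11.3% of control and 23.6% of fibrosis cells carried a UMI, at medians of 1843 and 2537 UMIs per cell.

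Ccl9 differed in opposite directions over the whole library and in alveolar macrophage-like cells. Over all kept cells it stood at 297 CPM in the control against 196 CPM in the fibrosis library. In alveolar macrophage-like cells it stood at 93.7 CPM (83.8 to 105) in the control against 443 CPM (426 to 461) in the fibrosis library, a log2 ratio of 2.24, and the share of these cells with a UMI was 22.2% and 46.9%. Thinned to 1500 UMIs per cell, these shares were 9.50% and 27.4%, against 2.30% and 3.65% of B-like cells. In classical monocyte-like cells, which held 86.3% of its classed UMIs in the control library, the levels were 897 CPM (877 to 917) and 857 CPM (814 to 902). Those cells were 21.8% of kept cells in the control against 6.31% in the fibrosis library. Had each class kept its control level under the fibrosis library's make-up, the library would have stood at 131 CPM.

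**Figure D3:**
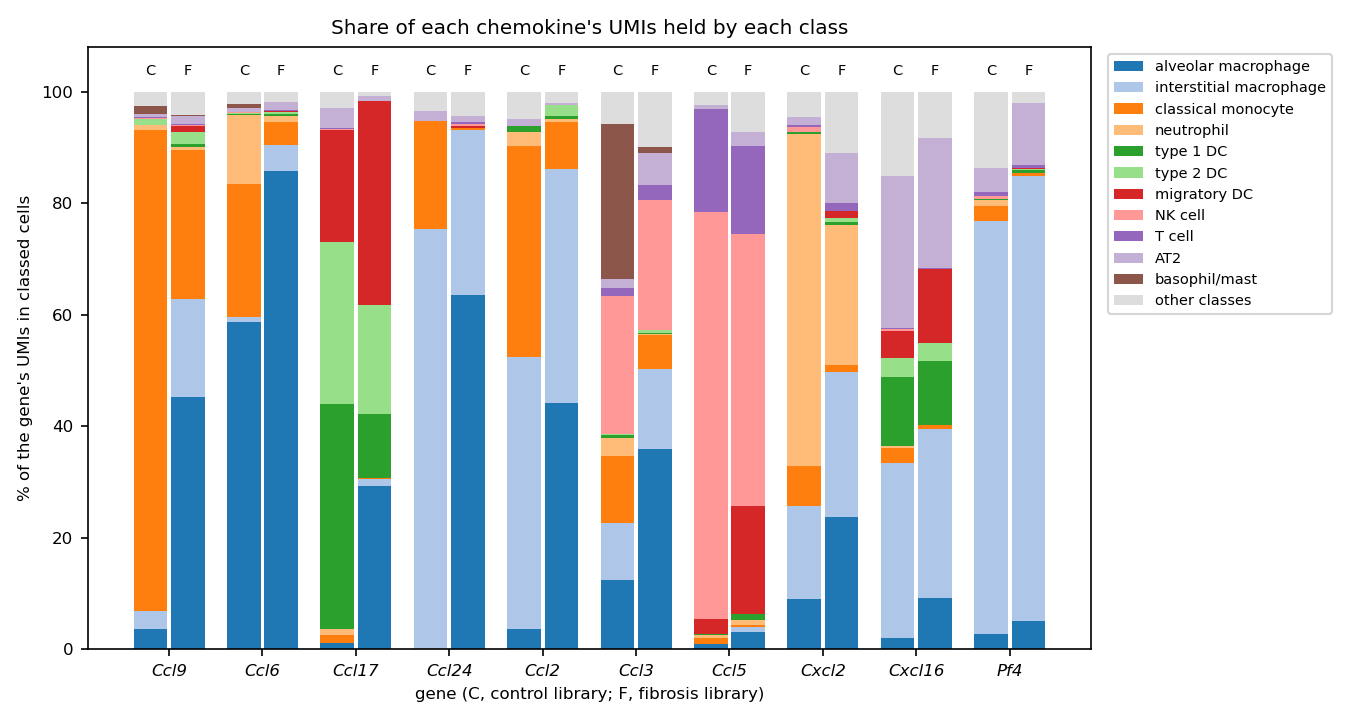
Share of the UMIs of 10 chemokine genes that each class held, in percent of the gene's UMIs in classed cells; the left bar of each pair is the control (C) and the right bar the fibrosis (F) library. For Ccl9, classical monocyte-like cells fill most of the control bar, and alveolar macrophage-like cells hold 45.3% of the fibrosis bar.

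The alveolar macrophage-like class as a whole had 25 members with at least 10 UMIs. Of these, 10 were at least 2-fold higher in the fibrosis library (5.08% of genes in that class) and 3 at least 2-fold lower (2.97% of genes). The higher members were Ccl2, Ccl8, Ccl9, Ccl17, Ccl21a, Ccl22, Ccl24, Cxcl3, Cxcl13 and Cxcl16. The lower members were Ccl25, Cxcl10 and Ppbp. Not all of these rest on many cells: Ccl21a, a ligand of lymphatic vessels, was at 2.03 and 5.81 CPM here and a UMI was found in 1.04% and 3.16% of cells, and 1 cell held 8 of the 9 Cxcl13 UMIs of the fibrosis library.

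Ccl17, a ligand of Ccr4 that draws T helper 2 and regulatory T cells, was nearly absent from control alveolar macrophage-like cells. Alveolar macrophage-like cells held 9 UMIs in the control against 1169 UMIs in the fibrosis library, or 2.61 CPM (1.19 to 4.96) and 206 CPM (194 to 218), a log2 ratio of 6.22 (5.37 to 7.43). The UMIs lay in 1.33% of the control and 15.9% of the fibrosis cells, and the top fibrosis cell held 10.2% of them. After thinning, the shares were 0.297% and 8.66%, against 0.242% and 1.12% of B-like cells. The log2 ratio ranged from 6.16 to 6.41 over the other ways of processing.

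In the dendritic classes, where Ccl17 is best known, no such difference was seen. Migratory dendritic-like cells stood at 4066 CPM (3487 to 4713) in the control against 3645 CPM (3460 to 3837) in the fibrosis library. Type 2 dendritic-like cells stood at 1124 CPM (991 to 1271) and 1214 CPM (1130 to 1302). Type 1 dendritic-like cells stood at 672 CPM (604 to 745) and 332 CPM (303 to 364), a log2 ratio of -1.02, which became -0.71 without the top cell of each library. A single cell held 65.3% of the Ccl17 UMIs of the 8 migratory dendritic-like control cells, and without the top cells the log2 ratio there was 1.15. Much Ccl17 signal lay outside the named classes, with 32.0% of control and 27.5% of fibrosis UMIs in cells given no class or more than 1 class.

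Ccl22, the other Ccr4 ligand, came mainly from migratory dendritic-like cells, which held 78.7% of its classed UMIs in the control against 92.3% in the fibrosis library. Its level there was 3835 CPM (3273 to 4464) and 2371 CPM (2223 to 2527), a log2 ratio of -0.70 that became 0.48 without the top cell of each library and -0.06 in classes drawn from clusters. In the fibrosis library 94.8% of the migratory dendritic-like cells with Ccl17 also carried Ccl22. In alveolar macrophage-like cells Ccl22 stood at 2.61 CPM in the control against 6.69 CPM in the fibrosis library. Over all kept cells of the fibrosis library Ccl22 stood at 38.0 CPM, and under the fibrosis make-up with control levels it would have stood at 48.0 CPM. The latter value rests mainly on 8 control migratory dendritic-like cells, of which 1 held 101 of the 166 Ccl22 UMIs.

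Ccl24 and Ccl11 are eotaxins, which draw eosinophils through Ccr3. Ccl24 had 0 UMIs among the 3446103 UMIs of control alveolar macrophage-like cells, which allows up to 0.871 CPM, and 186 UMIs in the fibrosis library, or 32.8 CPM (28.2 to 37.8). It was therefore at least 37.6-fold higher there. The transcripts lay in 2.34% of the fibrosis cells, against 0.843% of B-like cells, and the top cell held 24.7% of them. The median depth was 5254 UMIs in fibrosis alveolar macrophage-like and 2537 UMIs in fibrosis B-like cells. In interstitial macrophage-like cells Ccl24 stood at 81.8 CPM (59.2 to 110) in the control against 62.3 CPM (49.9 to 76.8) in the fibrosis library, a log2 ratio of -0.40 that was -1.41 in classes drawn from clusters. Ccl11 came from fibroblast-like cells, with 47 UMIs in 32 control cells and 50 UMIs in 41 fibrosis cells, or 351 CPM (258 to 467) and 219 CPM (163 to 289). Ccr3 itself had 9 and 3 UMIs in all kept cells.

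Clusters of alveolar macrophage-like cells, made without the chemokines and their receptors, differed in these ligands, though the first of them held few control cells. The cluster led by Mmp12, Spp1 and Arg1 held 20 control and 397 fibrosis cells, and the cluster led by Fabp1, Ear1 and Krt79 held 619 and 605. In the fibrosis library Ccl17 stood at 396 CPM (373 to 420) in the Mmp12 cluster and 36.5 CPM (30.0 to 43.9) in the Fabp1 cluster. Ccl9 stood at 950 and 165 CPM, and Cxcl16 at 133 and 9.85 CPM in these clusters. Inside the Fabp1 cluster Ccl17 was still higher in the fibrosis library, with 6 UMIs in the control against 111 in the fibrosis library, a log2 ratio of 4.09 (3.03 to 5.67). The other ligands differed less there than over the class: the log2 ratio was 0.98 for Ccl9 and 1.27 for Cxcl16, and Ccl24 had 0 and 2 UMIs. In the Mmp12 cluster, with its 20 control cells, Ccl24 was at least 3.70-fold higher. The cycling cluster led by Top2a stood between them, with 95.4 CPM of Ccl17 and 310 CPM of Ccl9 in its fibrosis cells. Of fibrosis alveolar macrophage-like cells with Ccl17, 70.5% carried Ccl9, against 42.4% of those without it, at medians of 6183 and 5076 UMIs per cell.

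**Figure D4:**
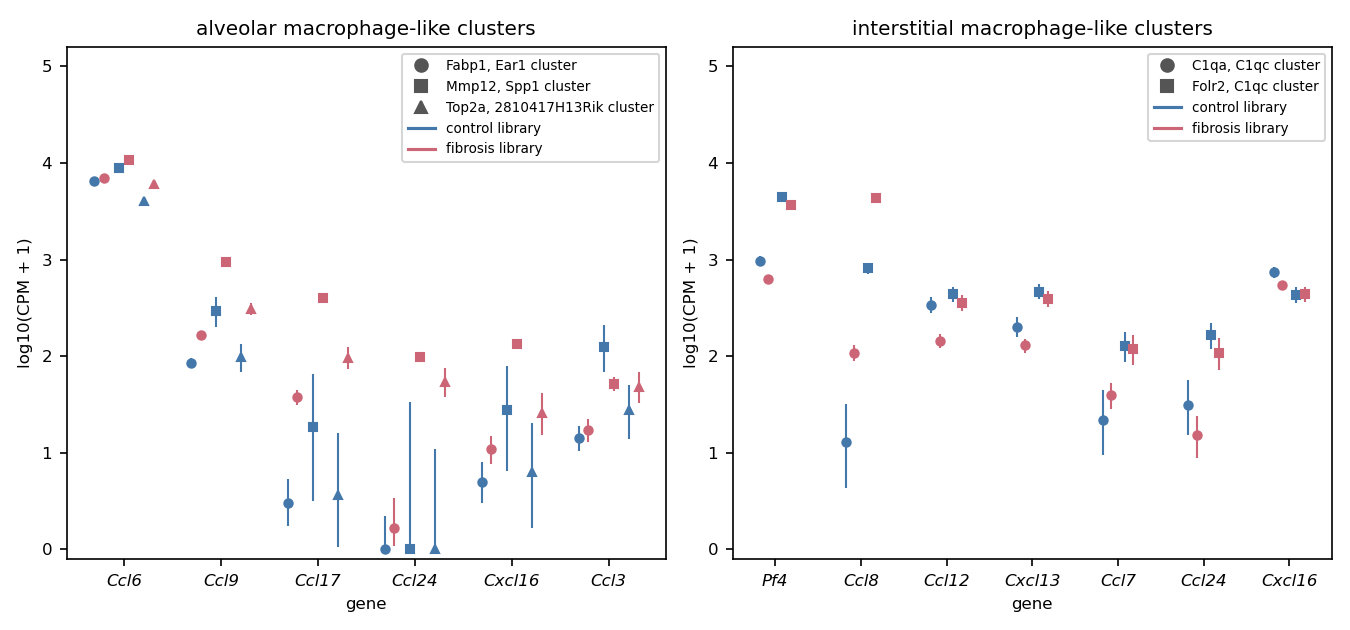
Levels as log10(CPM + 1) in clusters of alveolar macrophage-like (left) and interstitial macrophage-like (right) cells of either library (colour); shapes mark clusters, of which the C1qa, C1qc one is the C1qb cluster of the text, and lines are exact 95% Poisson intervals. Among the alveolar macrophage-like clusters, Ccl9, Ccl17, Ccl24 and Cxcl16 are highest in the fibrosis cells of the Mmp12 cluster; among the interstitial macrophage-like clusters, Ccl8 is highest in the fibrosis cells of the Folr2 cluster.

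The monocyte chemoattractants Ccl2, Ccl7, Ccl8 and Ccl12 lie together on chromosome 11 (GRCm38, chr11:82035571-82116799, with Ccl11) and act mainly through Ccr2, except that mouse Ccl8 is known as a ligand of Ccr8. The interstitial macrophage-like class was the source class of all 4. Ccl2 stood there at 76.1 CPM (54.4 to 104) in the control against 60.8 CPM (48.6 to 75.2) in the fibrosis library. Ccl7 stood at 74.2 CPM (52.8 to 101) and 55.8 CPM (44.1 to 69.7). The pair was often found in the same cells: 37.0% of control interstitial macrophage-like cells with Ccl2 carried Ccl7, against 7.32% of those without, and in the fibrosis library 32.7% against 4.56%.

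Ccl8 stood in interstitial macrophage-like cells at 379 CPM (328 to 435) in the control against 978 CPM (927 to 1031) in the fibrosis library, a log2 ratio of 1.37. It was found in 20.7% and 28.9% of these cells, and the top cell held 39.2% of the control and 11.4% of the fibrosis UMIs. This ratio depended on 1 control cell that had been removed as a likely doublet and held 247 Ccl8 UMIs: with doublets kept the log2 ratio was 0.26. In the cluster led by Folr2, Cd163 and Stab1, Ccl8 stood at 814 CPM (709 to 931) in 76 control cells and 4388 CPM (4147 to 4639) in 92 fibrosis cells. The control value rests on 214 UMIs, fewer than the 247 of the removed cell, which was not among the clustered cells. How far that cell would change the values of this cluster was not tested. In the cluster led by C1qb, Ms4a7 and Mgl2, Ccl8 stood at 12.0 and 107 CPM.

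Ccl12 stood at 420 CPM (367 to 480) in the control against 178 CPM (157 to 202) in the fibrosis library, a log2 ratio of -1.24 (-1.51 to -0.97) in interstitial macrophage-like cells. Inside the Folr2 cluster the levels were 437 and 357 CPM, and inside the C1qb cluster 340 and 143 CPM. In the C1qb cluster 1 cell held 58 of the 113 control UMIs of Ccl12, and 1 cell held 47 of the 152 fibrosis UMIs. Over all kept cells the top cell held 23.9% of the control and 16.3% of the fibrosis UMIs. Pf4, a CXC ligand named for platelets that interstitial macrophages also carry, stood at 2587 CPM (2452 to 2729) and 1242 CPM (1184 to 1302), a log2 ratio of -1.06. Inside the Folr2 cluster Pf4 stood at 4428 and 3709 CPM, a log2 ratio of -0.26 (-0.38 to -0.13). Inside the C1qb cluster it stood at 972 and 621 CPM, a log2 ratio of -0.65 (-0.84 to -0.45). Pf4 was found in 85.3% of control and 67.7% of fibrosis cells of the class. The Folr2 cluster counted 76 control and 92 fibrosis cells, and the C1qb cluster 91 and 273, which include cells outside the class.

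Cxcl13, which draws B cells through Cxcr5, came from 13.3% of control and 7.87% of fibrosis interstitial macrophage-like cells. It stood at 339 CPM (291 to 392) in the control against 176 CPM (155 to 200) in the fibrosis library, a log2 ratio of -0.94, and the top cell held 25.3% and 34.1% of the UMIs. Cells with Ccl8 carried Pf4 in 100% of control and 92.2% of fibrosis cases, against 81.5% and 57.7% of interstitial macrophage-like cells without Ccl8. Over this class, 19 members had at least 10 UMIs; 5 were at least 2-fold higher (7.84% of genes) and 3 at least 2-fold lower (5.90% of genes). The higher ones were Ccl5, Ccl6, Ccl8, Ccl17 and Cxcl14, and the lower ones Ccl4, Ccl12 and Pf4. Inside the C1qb and Folr2 clusters the log2 ratio of Ccl6 was only 0.18 and 0.29. A single cell held 72.3% of the Ccl17 UMIs in the fibrosis library and 84.6% of the Ccl4 UMIs in the control library.

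In alveolar macrophage-like cells Ccl2 had 3 UMIs in the control against 89 in the fibrosis library, a log2 ratio of 3.96, but 1 fibrosis cell held 84.3% of them. Without the top cell of each library the log2 ratio was 1.82, and after thinning 0.60. Classical monocyte-like cells had 31 and 17 Ccl2 UMIs, or 3.64 CPM (2.47 to 5.16) and 9.76 CPM (5.69 to 15.6). Over that class 19 members had at least 10 UMIs, 7 of them at least 2-fold higher (6.74% of genes) and 1 at least 2-fold lower (3.35% of genes). The 7 were Ccl2, Ccl3, Ccl4, Ccl8, Ccl17, Cxcl12 and Cxcl16, all at or below 17.2 CPM in the fibrosis library, and the lower one was Ppbp.

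Ccl3, Ccl4 and Ccl5 draw T cells and monocytes, and Xcl1 binds Xcr1 on type 1 dendritic cells. Among classes of at least 20 cells, NK-like cells were the source class of all 4. Ccl5 stood there at 21150 CPM (20807 to 21497) in the control against 18774 CPM (18314 to 19243) in the fibrosis library, in 99.7% and 99.2% of cells. Ccl3 stood at 186 CPM (156 to 222) and 345 CPM (285 to 413), a log2 ratio of 0.89, and Ccl4 at 402 CPM (356 to 452) and 588 CPM (509 to 676). In the fibrosis library 1 NK-like cell held 29.3% of the Ccl3 UMIs. Xcl1 stood at 274 CPM (236 to 316) and 267 CPM (215 to 329). Over the NK-like class, 0 of 9 members were at least 2-fold higher (6.58% of genes) and 0 at least 2-fold lower (6.28% of genes).

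Outside NK-like cells these ligands had other holders. T-like cells stood at 2355 CPM of Ccl5 (2279 to 2432) in the control against 1573 CPM (1506 to 1643) in the fibrosis library. Migratory dendritic-like cells stood at 12589 CPM (11554 to 13692) and 6258 CPM (6015 to 6507), and 1 of the 8 control cells held 50.6% of the Ccl5 UMIs. Basophil or mast-like cells, 15 in the control against 1 in the fibrosis library, held 27.8% of the classed Ccl3 UMIs of the control library, at 143 UMIs, and 5 UMIs in the fibrosis library. The 143 UMIs lay among 26858 UMIs of that class, against 128 among 686336 in control NK-like cells. The Ccl3 level of basophil or mast-like cells was thus higher, but the class was too small to be a source class. Alveolar macrophage-like cells held the largest share of Ccl3 in the fibrosis library, 35.9%, with 18.6 CPM (14.3 to 23.7) in the control against 31.5 CPM (27.1 to 36.5) in the fibrosis library. Over all kept cells Ccl3 stood at 16.9 and 16.3 CPM, so its holders changed while its total hardly did. Ccl3 and Ccl4 often shared a cell: 45.6% of control and 67.6% of fibrosis NK-like cells with Ccl3 carried Ccl4, against 23.0% and 29.4% of those without.

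The neutrophil-attracting CXC ligands Cxcl1, Cxcl2, Cxcl3, Cxcl5 and Cxcl15 lie with Pf4 and Ppbp in 1 stretch of chromosome 5 (GRCm38, chr5:90759360-90905938). Upstream sequences are shown for Cxcl1, Cxcl2 and Cxcl3 because these genes share a stretch with the letters of an NF-kB motif, for Ccl17 because it differed in macrophages, and for Cxcl10 because 1 cell held most of it. Of the 33 members, 24 had a promoter entry in RefSeq (GRCm38.p6), 25 windows in all, each of 300 bases from 250 bases before the gene start. Capitals mark the match, and each sequence is read 5′ to 3′ along the gene.
Cxcl1, chr5:90891144-90891213, plus strand: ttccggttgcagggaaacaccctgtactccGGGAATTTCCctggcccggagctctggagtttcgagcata
Cxcl2, chr5:90903772-90903841, plus strand: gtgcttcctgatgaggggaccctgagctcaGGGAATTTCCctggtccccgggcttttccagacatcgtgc
Cxcl3, chr5:90785998-90786067, plus strand: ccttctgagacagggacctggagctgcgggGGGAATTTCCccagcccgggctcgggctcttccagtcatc
Ccl17, chr8:94810269-94810338, plus strand: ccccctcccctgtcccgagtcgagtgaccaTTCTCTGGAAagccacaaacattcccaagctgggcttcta
Cxcl10, chr5:92349063-92349132, minus strand: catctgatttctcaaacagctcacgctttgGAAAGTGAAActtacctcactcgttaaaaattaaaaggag

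The NF-kB motif was searched on both strands as GGGA, 1 base of any kind and TTTCC, and motifs could overlap. It was present in 3 of the 25 member windows and in 0.411% of all 32851 windows. The matches begin 71, 97 and 73 bases before the start of Cxcl1, Cxcl2 and Cxcl3. The STAT motif (TTC, 4 bases of any kind, GAA) in the Ccl17 window was present in 6.95% of all windows and in 1 member window. The interferon response motif (GAAA, 2 bases of any kind, GAAA) in the Cxcl10 window was present in 3.44% of all windows and in 3 member windows, those of Ccl19, Cxcl10 and Cxcl14. The AP-1 motif TGANTCA was present in 7.81% of all windows and in 4 member windows, those of Ccl9, Cxcl9, Cxcl10 and Ppbp. A match describes these letters only and shows no binding.

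Cxcl2 had neutrophil-like cells as source class, with 158 UMIs in 689 control cells and 75 UMIs in 78 fibrosis cells. Its level was 110 CPM (93.9 to 129) and 357 CPM (281 to 448), a log2 ratio of 1.70 (1.28 to 2.10), and 10.9% and 34.6% of the cells carried a UMI. Thinned to 1500 UMIs per cell, the shares were 9.42% and 25.6%. Those cells held 59.6% of the classed Cxcl2 UMIs in the control library, and interstitial macrophage-like cells held the largest share in the fibrosis library. Ccl5, a lymphocyte gene, was also higher in neutrophil-like cells of the fibrosis library, at 79.0 and 533 CPM, with 38.4% of the fibrosis UMIs in 1 cell. The part of transcripts from other cells in the Cxcl2 ratio was not tested. Over this class 23.6% of all genes were at least 2-fold higher in the fibrosis library.

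In AT2-like cells the neutrophil-attracting ligands other than Cxcl15 were rare and higher in the fibrosis library. Cxcl5 had 0 UMIs in 994 control cells and 92 UMIs in 1707 fibrosis cells, or 8.68 CPM (6.99 to 10.6), at least 17.6-fold higher, in 1.70% of the fibrosis cells. Cxcl1 had 10 and 75 UMIs, or 1.64 CPM (0.788 to 3.02) and 7.07 CPM (5.56 to 8.86), a log2 ratio of 2.04 that ranged from 1.33 to 2.25 over the other ways of processing. Cxcl3 had 14 and 48 UMIs, a log2 ratio of 0.94 (0.09 to 1.95). Neither Cxcl1 nor Cxcl5 had a UMI in B-like cells of either library. Of fibrosis AT2-like cells with Cxcl1, 11.6% carried Cxcl5, against 1.44% of those without.

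Cxcl1 and Cxcl5 were not particular to 1 kind of AT2-like cell. Cxcl1 stood at 14.1 CPM (10.3 to 18.9) in the fibrosis cells of the cluster led by Slc26a4, Sprr1a and Chia1 and at 4.43 CPM (2.96 to 6.36) in those of the larger cluster led by Bex2, Bex4 and Lyz1. Cxcl5 stood at 11.3 CPM (7.90 to 15.6) and 7.48 CPM (5.53 to 9.89). The top fibrosis cells held 16 of 45 Cxcl1 and 7 of 36 Cxcl5 UMIs in the first cluster, and 3 of 29 and 14 of 49 in the second. The first of these clusters held 45 control and 470 fibrosis cells. Fibroblast-like cells were the source class of Cxcl1, but their 3 and 0 UMIs were too few for a ratio. Club-like cells were the source class of Cxcl5, with 18 UMIs in 71 control cells and 75 UMIs in 123 fibrosis cells, or 11.8 CPM (7.01 to 18.7) and 29.2 CPM (23.0 to 36.6), a log2 ratio of 1.27. After thinning the log2 ratio there was -1.66, with 2.86% and 1.63% of cells carrying a UMI. Before thinning the median depth of club-like cells was 20545 and 17690 UMIs.

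Over AT2-like cells 21 members had at least 10 UMIs, 8 of them at least 2-fold higher (6.05% of genes) and 1, Ppbp, at least 2-fold lower (1.89% of genes). The 8 were Ccl4, Ccl6, Ccl8, Ccl21a, Ccl22, Cxcl1, Cxcl2 and Cxcl5. Of these, Ccl6, Ccl8 and Cxcl2 stood at shares close to those of B-like cells. Ccl6 was in 27.6% and 28.3% of the fibrosis cells of the Bex2 and Slc26a4 clusters, near its share of fibrosis B-like cells given above. Shares of B-like cells are not given here for Ccl4, Ccl21a and Ccl22. Ccl8 was in 2.46% of fibrosis AT2-like and 2.25% of fibrosis B-like cells, and Cxcl2 in 1.35% and 1.12%. The median depth was 5505 UMIs in fibrosis AT2-like and 2537 UMIs in fibrosis B-like cells. The part of transcripts from other cells in these shares was not tested.

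Cxcl15, known as lungkine and made by lung epithelium, was found in 99.8% of control and nearly every one of the fibrosis AT2-like cells. Its level was 5989 CPM (5928 to 6051) in the control against 6118 CPM (6071 to 6165) in the fibrosis library, a log2 ratio of 0.03. Club-like cells stood at 772 CPM (729 to 818) and 1094 CPM (1054 to 1136). Over all kept cells Cxcl15 stood at 1220 and 2046 CPM, and AT2-like cells numbered 994 and 1707. It was also found in 14.4% of control and 19.7% of fibrosis B-like cells, at 71.0 and 79.2 CPM.

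Cxcl3 had alveolar macrophage-like cells as source class, with 3 UMIs in the control against 61 in the fibrosis library, a log2 ratio of 3.41. All 3 control UMIs lay in 1 cell and 68.9% of the fibrosis UMIs in another, and after thinning the log2 ratio was 1.38. Ppbp, a platelet ligand, had 283 UMIs in the control against 9 in the fibrosis library. Of the classed control UMIs, 73.9% lay in 3 platelet-like cells, and the fibrosis library held no platelet-like cell. That class was too small to be a source class, so the log2 ratio of -3.69 given for Ppbp refers to B-like cells with 12 and 0 UMIs, and 1 cell held 58.3% of those 12. The same 3 cells held 206 UMIs of Pf4.

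Cxcl9 and Cxcl10 are interferon-induced ligands of Cxcr3. Cxcl10 had 418 UMIs in the control against 50 in the fibrosis library, but 1 control cell, an alveolar macrophage-like cell of the cycling cluster, held 252 of them. The log2 ratio of -8.12 in alveolar macrophage-like cells therefore rests on that cell, and without the top cell of each library it was -2.31, from 1 and 0 UMIs. In classical monocyte-like cells Cxcl10 had 124 and 27 UMIs, at 14.5 CPM (12.1 to 17.3) and 15.5 CPM (10.2 to 22.6), in 1.83% and 2.17% of cells. Cxcl9 had 34 and 24 UMIs in all, and 54.5% of its 11 control UMIs in alveolar macrophage-like cells came from 1 cell.

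Cxcl12, the ligand of Cxcr4 that retains cells in tissue, came from endothelial-like and fibroblast-like cells. Endothelial-like cells stood at 412 CPM (363 to 465) in the control against 514 CPM (458 to 574) in the fibrosis library, and fibroblast-like cells at 359 CPM (264 to 475) and 404 CPM (326 to 495). Cxcl14 stood in fibroblast-like cells at 418 CPM (316 to 543) and 461 CPM (377 to 558). In interstitial macrophage-like cells Cxcl14 had 8 and 59 UMIs, a log2 ratio of 1.40 (0.40 to 2.75), and 10.4% of the fibrosis cells carried one. Clusters of alveolar macrophage-like cells also held it, with 28 and 55 UMIs in the Fabp1 cluster and 1 and 44 in the Mmp12 cluster. There it was found in 7.93% and 8.56% of the fibrosis cells. No B-like cell carried a Cxcl14 UMI. The fibroblast-like class had 32 control and 41 fibrosis cells, which limits each of its values.

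Ccl21a and Ccl19 bind Ccr7 and guide dendritic cells and T cells towards lymphatics and lymph nodes. Each symbol has 2 rows in the gene tables, which were summed, and near-identical copies of these genes make the split of reads uncertain. Ccl21a stood in lymphatic endothelial-like cells at 37049 CPM (33791 to 40535) in 5 control cells and 22107 CPM (21351 to 22883) in 22 fibrosis cells, a log2 ratio of -0.75. Per cell the direction was the other way, with a log2 ratio of 0.63, and the median depth of those cells was 1920 and 4906 UMIs. Endothelial-like control cells held 258 more Ccl21a UMIs, 54.7% of them in 1 cell. Ccl19 had 4 and 16 UMIs, of which fibroblast-like cells held 3 and 8.

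Ccl20, the ligand of Ccr6, had 13 and 20 UMIs, and 1 AT2-like cell held 8 of the control UMIs. Ccl25, a ligand of Ccr9 known from thymus and gut, had 223 and 189 UMIs that were spread thinly: its top cell held 2 UMIs in each library. In AT2-like cells Ccl25 stood at 4.77 and 4.81 CPM. In alveolar macrophage-like cells it stood at 9.58 CPM (6.59 to 13.4) and 4.23 CPM (2.71 to 6.29), a log2 ratio of -1.17 that was -0.36 after thinning.

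Cxcl16 and Cx3cl1 are made as membrane-bound proteins, and Cxcl16 binds Cxcr6. Cxcl16 in alveolar macrophage-like cells had 21 UMIs in the control against 225 in the fibrosis library, or 6.09 CPM (3.77 to 9.32) and 39.6 CPM (34.6 to 45.2), a log2 ratio of 2.67 (2.05 to 3.42). These UMIs lay in 2.81% and 12.1% of cells, against 0.228% and 0.843% of B-like cells. In interstitial macrophage-like cells Cxcl16 stood at 653 CPM (585 to 725) and 538 CPM (500 to 578). In migratory dendritic-like cells it stood at 1247 CPM (937 to 1628) and 813 CPM (727 to 906), and in AT2-like cells at 49.0 and 54.3 CPM. Over all kept cells it stood at 37.7 and 81.6 CPM, and control levels under the fibrosis make-up would have given 81.0 CPM. Cx3cl1 stood in endothelial-like cells at 88.7 CPM (67.0 to 115) and 68.0 CPM (48.8 to 92.2), and in club-like cells at 17.7 and 20.6 CPM. Alveolar macrophage-like cells held the largest share of its classed UMIs, 36.6% and 28.4%, at 21.8 CPM (17.1 to 27.3) and 13.9 CPM (11.0 to 17.3).

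**Figure D5:**
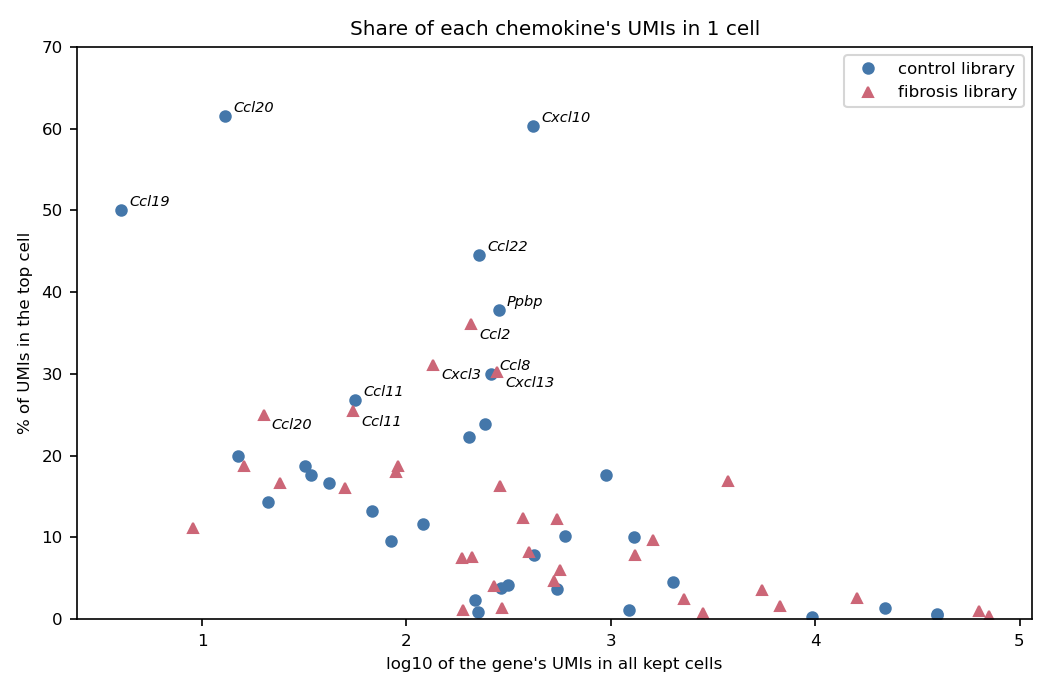
Share of each chemokine's UMIs that lay in its top cell (vertical axis, percent) against log10 of its UMIs in all kept cells (horizontal axis), in the control (circles) and fibrosis (triangles) library; members at or above 25% are named. In the control library Ccl20, with 13 UMIs, and Cxcl10, with 418 UMIs, have the highest shares, 61.5% and 60.3%.

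The share of UMIs in the top cell set apart members whose totals rest on few cells. In the control library it was 61.5% for Ccl20 (13 UMIs), 60.3% for Cxcl10, 50% for Ccl19 (4 UMIs), 44.5% for Ccl22, 37.8% for Ppbp and 30.0% for Ccl8. In the fibrosis library it was 36.1% for Ccl2, 31.1% for Cxcl3 and 30.2% for Cxcl13. It was small for Ccl9 with 0.249% and 1.60%, and Ccl6 with 0.512% and 1.02%.

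Of the 23 chemokine receptors, 17 had at least 10 UMIs in their source class: 2 were at least 2-fold higher in the fibrosis library, 3 at least 2-fold lower and 12 in between, with a median log2 ratio of -0.22. Over all genes read in the same way, 4.86% were higher, 9.24% were lower and the median was -0.14. Ccr2, the receptor of Ccl2, Ccl7 and Ccl12, stood at 919 and 918 CPM in classical monocyte-like cells. Cxcr2, the receptor of the neutrophil-attracting ligands, stood at 790 and 643 CPM in neutrophil-like cells. Ccr7 stood at 1732 and 1349 CPM in migratory dendritic-like cells, Xcr1 at 281 and 255 CPM in type 1 dendritic-like cells, and Cxcr5 at 105 and 90.5 CPM in B-like cells. The higher receptors were Ackr3, a scavenger of Cxcl12, at 64.9 and 176 CPM in endothelial-like cells, a log2 ratio of 1.43 (0.90 to 1.99), and Ackr1, with 3 and 18 UMIs there. The lower ones were Ackr2, at 112 and 44.8 CPM in endothelial-like cells, Cxcr1 in neutrophil-like cells with 97 and 5 UMIs, and Cxcr4 in migratory dendritic-like cells with 6 and 22 UMIs. The log2 ratio of Cxcr4, with 8 control cells, was -1.42 (-2.68 to 0.25), an interval that includes equal levels. Ccr4, the receptor of Ccl17 and Ccl22, had 10 and 33 UMIs, and Ccr8 had 1 and 15 UMIs in all kept cells.

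Of 8 further ligands that are no members, Cxcl17 had 869 UMIs in the control against 2038 in the fibrosis library, Ccl27a 282 and 417, Ccl1 0 and 21, Ccl21b 2 and 8, and Ccl28 1 and 3. Ccl21c, Ccl26 and Ccl27b had 0 UMIs in both libraries.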

How the data were processed

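Lung cells of 1 control and 1 fibrosis mouse were measured in droplets. The deposited values are raw counts of UMIs per gene and cell; the submitters' processing notes name bcl2fastq, Cell Ranger 1.3 and the genome build mm10. Cells with at least 200 genes and at most 10% mitochondrial UMIs were kept, and then the expected share of doublets, which grows with the number of cells, was taken by rank of a score from simulated doublets (2 per cell) and removed in each library: 515 control cells (6.42%) and 386 fibrosis cells (5.56%). Totals of the deposited libraries were 36632591 and 38090308 UMIs, with lowest totals per cell of 1460 and 1915.

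A cell entered a class with at least 3 detected markers and a marker score of at least 0.25, the mean of log counts per 10000 scaled to the 99.9th percentile. A cell whose best score in another lineage exceeded 0.6 of its best was called mixed. These thresholds were set after the data had been seen. Since the classes were rebuilt here, a difference from the study may come from their names. The gate and the clusters (scanpy 1.11.5, leidenalg 0.10.2, resolution 1) gave 90.8% of classical monocyte-like and 99.9% of alveolar macrophage-like cells the same name, and 75.9% of type 2 dendritic-like cells. Cluster values count all cells of a cluster. The mixed cells numbered 297 and 345, and those with no class 428 and 593. The markers Trac, Trbc2 and Ighm were not found in the gene tables.

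UMIs were summed per class and library, with exact Poisson intervals, exact binomial shares and an exact interval for the ratio (scipy 1.17.1). A ratio was called at 2-fold with at least 10 UMIs, and a count of 0 was given a limit of 3 counts. No test was possible with 1 library per group. The calculation was tested on simulated data. The members, lists and cell classes were chosen with earlier results of these data known. Every member was to be described, in full with at least 30 UMIs, with receptors of named ligands and counts for other ligands. Positions come from GENCODE vM21. Alternatives were classes from clusters, doublets kept, a mitochondrial limit of 20%, a floor of 2000 UMIs, UMIs per cell, the class median subtracted, the top cell left out, thinning to 1500 UMIs, a looser lineage limit of 0.8 and, added after seeing the data, shared barcodes left out.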

Additional observations from a re-analysis of the deposited data

Results flagged for a closer look

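Among classes with at least 50 cells in each library and ligands with at least 30 UMIs there, 3 ligands were at least 2-fold higher in one class and at least 2-fold lower in another, with counting intervals that exclude equal levels; these differences were not tested. Smaller classes were not compared in this way, such as the 8 control migratory dendritic-like cells, in which Ccl5 was at least 2-fold lower. For Ccl17 the log2 ratios of alveolar macrophage-like and type 1 dendritic-like cells differed by 7.24. For Ccl4 those of B-like and interstitial macrophage-like cells differed by 5.73, with 60.7% of the fibrosis B-like UMIs and 84.6% of the control interstitial macrophage-like UMIs each in 1 cell. For Ccl21a those of AT2-like and endothelial-like cells differed by 8.63, and 1 control cell held 54.7% of the endothelial-like UMIs. No cell of the Bex2 and Slc26a4 clusters of AT2-like cells held more than 1 Ccl21a UMI. Such a UMI was found in 2.27% and 3.62% of the fibrosis cells of these clusters. Over all kept cells the log2 ratio of Ccl21a was 1.89.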

How the results depend on the processing

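No paired analysis was possible because each group has 1 library. The count of members at least 2-fold lower in their source class was 4 and became 2 after thinning to 1500 UMIs per cell. The count of higher members, 4, lay between 3 and 5 over the alternatives, but not always through the same calls: Ccl8 in interstitial macrophage-like cells was at 0.26 with doublets kept. The count of receptors at least 2-fold higher was 2 and became 4 in classes from clusters, 1 with a floor of 2000 UMIs per cell and 1 after thinning. The count of receptors at least 2-fold lower was 3 and became 1 in classes from clusters, 1 for UMIs per cell and 1 after thinning. Of 58 ratios of members, 18 were past 2-fold, and 13 of these stayed past it after thinning, 15 for UMIs per cell, 17 in classes from clusters and 18 without shared barcodes. The only ratio that changed direction past 2-fold was that of Cxcl5 in club-like cells, at -1.66 after thinning. Few of those cells still carried a Cxcl5 UMI then, and the cause was not tested. Each class of few cells, such as the 8 migratory dendritic-like and 5 lymphatic endothelial-like control cells, limits its ratios through single cells.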
